A study of Homo sapiens with 6 samples.

Results

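The MCM family was examined in PANC-1 cells, a human pancreatic ductal adenocarcinoma cell line, after silencing of METTL16, an RNA m6A methyltransferase. Members were the rows of the deposited expression table named MCM2, MCM3, MCM4, MCM5, MCM6, MCM7, MCM8, MCM9, MCM10 or MCMBP, which gave 10 of 58735 genes. RNA-seq covered 6 PANC-1 samples, of which 3 had received a control siRNA (si-NC) and 3 an siRNA directed at METTL16 (si-METTL16). The methods call them biological triplicates of stably transfected cells and elsewhere describe METTL16 knockdown lines made with shRNA under puromycin selection. The titles name the controls si-NC while another label calls them WT, and which of the METTL16 siRNAs that the study lists these samples carried is not given in the sources used here.

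MCM2 to MCM7 form a heterohexameric ring that is loaded on DNA at replication origins in G1 phase and becomes the motor of the replicative helicase once CDC45 and the GINS complex have joined it, giving the CMG helicase. MCM10 is needed for that ring to start unwinding and is not itself a helicase of the family fold. MCM8 and MCM9 share the helicase fold but form a separate complex that acts in homologous recombination, and MCMBP binds newly made MCM subunits and protects them before loading. Genes of the ring are transcribed mainly around the G1/S transition in cycling cells, in large part under E2F transcription factors.

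The deposited counts summed to between 15725298 and 18054436 per sample, and all 10 members passed the filter on low counts, with between 128 and 2954 counts in a sample. METTL16 itself, the targeted gene, had between 1546 and 1764 counts in si-NC and between 528 and 627 counts in si-METTL16 samples, a log2 fold change of -1.48 (edgeR adjusted p = 8.3e-05), so each library matched its label. Of the duct markers, KRT8, KRT18, KRT19 and SOX9 were present, KRT7 was low at 0.949 FPKM in si-NC cells, and CFTR had 2 counts in all 6 samples together. The 9 acinar, islet, blood and endothelial markers reached at most 0.0645 FPKM, and the fibroblast markers PDGFRB and DCN had 18 and 3 counts over the 6 samples. KRT19, SOX9 and KRT7 fell in si-METTL16 cells, and COL1A1, the other fibroblast marker, rose from 26.4 to 62.5 FPKM. The part of these markers in the results on the MCM genes was not tested. Over all 15089 genes tested, 35.9% were called at an adjusted p under 0.05 in edgeR's quasi-likelihood test, 18.4% higher and 17.5% lower, and the samples of the groups did not overlap for 50.9%. The median log2 fold change of all tested genes was -0.0045.

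Of the 6 ring subunits, 5 rose after METTL16 silencing (MCM2, MCM3, MCM4, MCM5 and MCM7), against 18.4% of all genes called higher, and none fell. MCM3 rose most, to 2.28 times the si-NC level, and MCM6 did not pass the threshold. The median log2 fold change of the 6 subunits was 0.89, with a range from 0.24 to 1.19. The si-NC and si-METTL16 samples did not overlap for any of the 6, beside 50.9% of all genes. In bulk RNA, a larger share of cycling cells and more of these transcripts per cell cannot be told apart, and the proliferation markers MKI67, PCNA, TOP2A and CCNA2 all rose in the same samples, with log2 fold changes from 0.82 to 1.29. The part of these markers in the change of the MCM genes was not tested.

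MCM3 occupies positions 52264009 to 52284881 of chromosome 6 in the GRCh38 coordinates of the table, as do the other positions given for genes here. Its CPM, the count scaled to library size by TMM, was 63.0, 81.2 and 69.5 for replicates 1, 2 and 3 of si-NC, and 157.5, 166 and 164 for those of si-METTL16, the order used throughout. All si-METTL16 samples lay close together and far above the highest control. The log2 fold change was 1.19 (95% interval 0.96 to 1.42, edgeR adjusted p = 2.4e-04), which placed 3.53% of all tested genes above it.

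MCM2 and MCM5 moved by nearly the same amount. MCM2, on chromosome 3 from 127598223 to 127622436, had 42.5, 54.0 and 49.6 CPM in si-NC and 96.1, 94.8 and 96.7 CPM in si-METTL16 samples. MCM5, on chromosome 22 from 35400063 to 35425430, had 38.0, 46.5 and 41.8 CPM in si-NC and 79.9, 79.9 and 81.6 CPM in si-METTL16 samples. For both genes the control samples were spread over a wider range than the silenced ones. Their log2 fold changes were 0.98 (SE 0.09, edgeR adjusted p = 4.2e-04) for MCM2 and 0.93 (SE 0.09, edgeR adjusted p = 3.9e-04) for MCM5.

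MCM7, whose introns carry the precursors of miR-25, miR-93 and miR-106b, lies on chromosome 7 from 100092728 to 100101940. It had 83.1, 87.0 and 79.5 CPM in si-NC samples and 148.1, 156 and 147 CPM in si-METTL16 samples. The samples within each group lay close together, and the log2 fold change of 0.86 had the smallest standard error of the family (SE 0.06, edgeR adjusted p = 1.7e-04). The 5′ end of MCM7 overlaps AP4M1 on the opposite strand by 392 exonic bases, or 7.90% of its exonic sequence in GENCODE v44. Whether counting used strand is not given in the sources used here. AP4M1 had a log2 fold change of -0.10 and was not called (edgeR adjusted p = 0.513).

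MCM4 rose with more scatter. On chromosome 8 from 47960185 to 47978160, it had 57.3, 76.8 and 63.5 CPM in si-NC samples and 94.6, 126 and 94.0 CPM in si-METTL16 samples, replicate 2 being the highest in each group. The groups stayed apart, with a log2 fold change of 0.67 (95% interval 0.31 to 1.03, edgeR adjusted p = 0.0129). Leaving out each sample in turn moved this log2 fold change between 0.52 and 0.79, and the largest edgeR adjusted p of these 6 fits was 0.0477.

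MCM6 stood apart from the other subunits. It lies on chromosome 2 from 135839626 to 135876426 and had 60.7, 77.4 and 72.6 CPM in si-NC samples and 79.0, 88.4 and 80.7 CPM in si-METTL16 samples. The lowest silenced sample exceeded the highest control by a small margin only. The log2 fold change was 0.24 with a 95% interval from -0.01 to 0.48, which corresponds to between 0.996 and 1.39 times the control level (edgeR adjusted p = 0.115). MCM6 was called in 0 of 14 alternative fits, with adjusted p-values from 0.0650 to 0.278 and log2 fold changes from 0.14 to 0.30. Its unadjusted p was 0.0539.

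**Figure D1:**
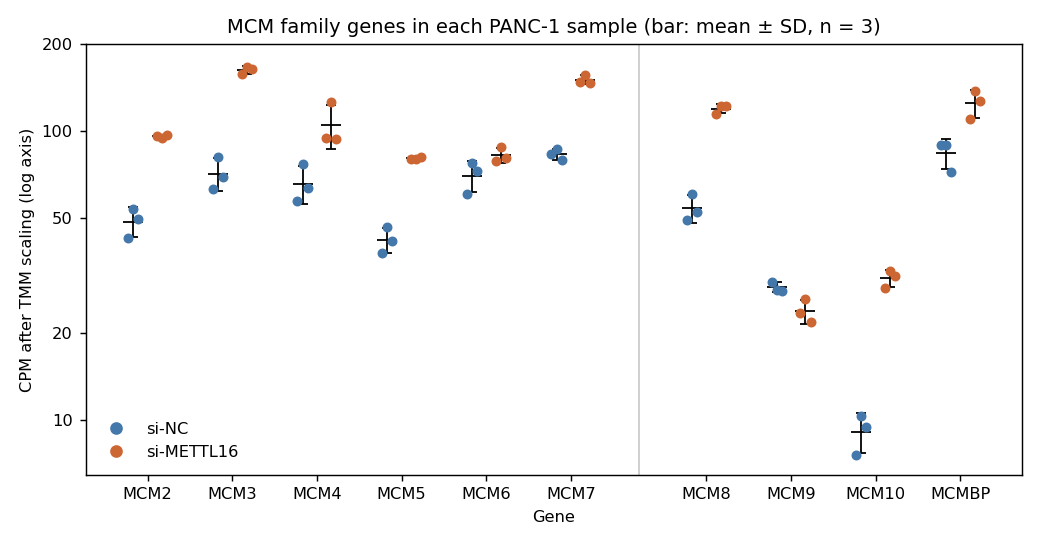
CPM after TMM scaling on a log axis for each of the 10 genes, with a point for each of 3 si-NC (blue) and 3 si-METTL16 (orange) samples and bars for the mean ± SD; ring subunits are left of the grey line. The orange points lie above the blue ones for every gene except MCM9, where they lie below, and the gap is narrowest for MCM6, from 77.4 to 79.0 CPM.

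With the smallest fold change at MCM6 and the largest at MCM3, the make-up of the ring transcripts differed between the groups. On the deposited FPKM scale, which divides counts by gene length, the 6 subunits summed to 53.2 ± 5.65 in the controls and to 91.5 ± 3.46 after silencing (SD, n = 3 each). The share of MCM6 in that sum was 28.9%, 29.8% and 31.1% for si-NC and 19.9%, 20.8% and 19.9% for si-METTL16. The share of MCM3 was 23.8%, 24.8% and 23.6% in si-NC and 31.4%, 31.0% and 32.2% in si-METTL16 samples. Both shares were separated between the groups without overlap, with si-METTL16 minus si-NC at -9.75 percentage points for MCM6 and 7.45 for MCM3. From CPM, with no division by length, the differences were -6.19 and 5.39 points, and per MANE Select transcript length -5.47 and 5.29 points. MCM3 and MCM6 were singled out here for their fold changes in these same samples. On FPKM, the shares of MCM2 and MCM5 were also separated between the groups, with smaller differences of 1.71 and 0.82 points. The groups overlapped for MCM4, and for MCM7, which kept a share between 15.1% and 17.9% in the 6 samples.

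The change of MCM6 relative to MCM3 was also expressed per sample as a log2 ratio of CPM, which needs no gene length. The ratio of MCM3 to MCM6, a pair chosen after their values were seen, was 0.05, 0.07 and -0.06 on the log2 scale in si-NC and 0.99, 0.91 and 1.02 in si-METTL16 samples. Both transcripts were counted about equally often in every control and MCM3 more often in every silenced sample. Since the pair was picked for this difference, no test is given.

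**Figure D2:**
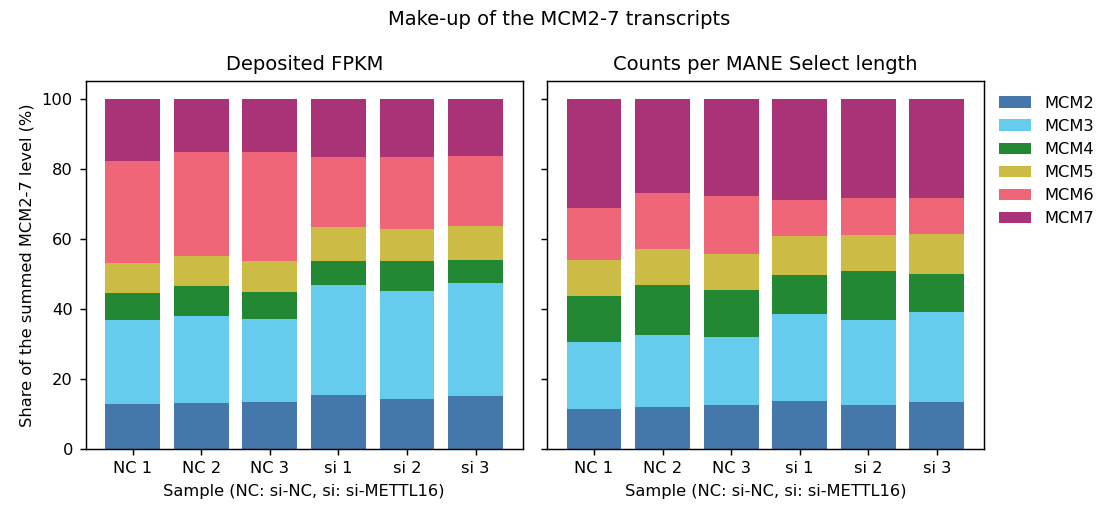
Stacked bars of the share (%) of each ring subunit in the summed level of MCM2 to MCM7 in each sample, from deposited FPKM on the left and from counts per MANE Select transcript length on the right. The band of MCM6 narrows and that of MCM3 widens in the si-METTL16 samples on both scales, while the height of each band differs between the scales.

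The order of the subunit levels depended on the length used. On the FPKM scale, MCM6 was the highest member in si-NC cells at 15.9 ± 1.95 (SD, n = 3), its samples overlapping those of MCM3 at 12.8 ± 1.66 (SD, n = 3), and MCMBP and MCM7 followed at 10.8 and 8.53. In si-METTL16 cells MCM3 was highest at 28.9 ± 0.936 (SD, n = 3) and lay apart from MCM6 at 18.5 ± 1.15 (SD, n = 3). The lengths behind these FPKM values were longer than those of the MANE Select transcripts, the standard reference isoforms in GENCODE v44, by a factor from 1.18 for MCM6 to 3.98 for MCM7. With counts divided by the MANE Select length and the library total instead, MCM7 was the highest member in both groups, with samples from 32.5 to 35.5 in si-NC and from 59.2 to 62.9 in si-METTL16, and MCM6 was the fourth in si-NC and the seventh in si-METTL16 cells. On that scale, the neighbours from MCM3 down to MCM5 in the si-NC order overlapped each with the next. MCM10 and MCM9 were the lowest members on both scales, and they changed places between the groups.

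Of the 4 members outside the ring, MCM8, MCM10 and MCMBP rose and none fell at the threshold, beside 18.4% of all genes called higher and 17.5% lower. Their median log2 fold change, with MCM9, was 0.86, close to the 0.89 of the ring, but the range from -0.28 to 1.76 was wider at both ends. MCM10 is the activator of the CMG helicase and lies on chromosome 10 from 13161554 to 13211104. It had the fewest counts of the members in si-NC samples, at 128, 176 and 167 in si-NC and 472, 512 and 566 in si-METTL16 samples. In CPM this was 9.16 ± 1.43 against 31.0 ± 2.07 (SD, n = 3 each), the largest change of the family, with 3.39 times the control level (95% interval 2.71 to 4.23, edgeR adjusted p = 2.1e-04). Only 0.828% of the tested genes had a higher log2 fold change than its 1.76.

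MCM8 and MCM9, which work as a complex, had fold changes of opposite sign, and only that of MCM8 passed the test. MCM8, on chromosome 20 from 5950652 to 5998977, had 49.4, 60.8 and 52.4 CPM in si-NC and 114.5, 122 and 121.8 CPM in si-METTL16 samples. Every silenced sample was well above every control, with a log2 fold change of 1.14 (SE 0.09, edgeR adjusted p = 2.2e-04). MCM9, on chromosome 6 from 118813442 to 118935162, had 30.2, 28.3 and 28.1 CPM in si-NC and 23.5, 26.3 and 21.8 CPM in si-METTL16 samples. Here every silenced sample was below every control. The log2 fold change of MCM9 was -0.28 (95% interval -0.51 to -0.05), and it did not pass the threshold (edgeR adjusted p = 0.0641). Without si-METTL16 replicate 2 it was called lower, with a log2 fold change of -0.35 (edgeR adjusted p = 0.0440), and in the other 13 alternative fits it was not called.

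The log2 ratio of MCM8 to MCM9 in CPM, another pair chosen after its values were seen, was 0.709, 1.097 and 0.894 in si-NC samples and 2.278, 2.210 and 2.475 in si-METTL16 samples. The ratio was higher in every silenced sample than in any control, by 1.42 on the log2 scale (no test, as for the other chosen pair). HROB, which loads the MCM8-MCM9 complex and is listed in the table as C17orf53, rose with MCM8, from between 34 and 52 counts in si-NC to between 56 and 99 in si-METTL16 samples (log2 fold change 1.03, SE 0.30, edgeR adjusted p = 0.0317). Its call was lost in 5 of the 12 alternative fits that tested it, with no filter on low counts and without si-NC replicate 1 or 3 or si-METTL16 replicate 2 or 3, and the highest adjusted p was 0.101. The histone chaperone gene ASF1A lies within MCM9 on the opposite strand, and 205 of its exonic bases, 1.64% of the exonic sequence of MCM9, are shared. ASF1A fell (log2 fold change -0.44, edgeR adjusted p = 0.0307). If counting did not use strand, reads in the shared bases could come from either gene.

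MCMBP, the chaperone of the subunits, lies on chromosome 10 from 119829404 to 119892556. It had 89.5, 89.9 and 72.2 CPM in si-NC and 109.8, 137.5 and 127 CPM in si-METTL16 samples, replicate 3 being the lowest control and replicate 1 the lowest silenced sample. The rise was the smallest among the members called, at 1.49 times the control level (log2 fold change 0.57, SE 0.12, edgeR adjusted p = 0.0086).

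**Figure D3:**
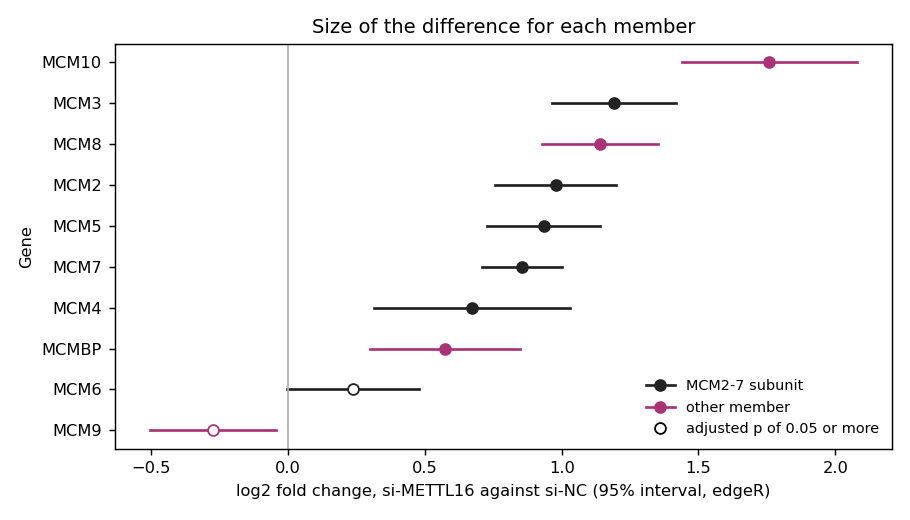
Log2 fold changes of the 10 members with 95% intervals from edgeR, ring subunits in black and other members in purple; open points did not pass an adjusted p of 0.05. MCM10 is at the top with 1.76, MCM9 is the only point left of 0 at -0.28, and the interval of MCM6 reaches from -0.01 to 0.48.

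Each of these genes was also set against the ring in the same sample, as its log2 CPM minus the mean log2 CPM of MCM2 to MCM7. Relative to the ring, MCM10 went up by 0.94 and MCM8 by 0.33 in si-METTL16 samples, and the groups did not overlap for either. MCM9 went down by 1.09, from between -1.27 and -0.88 to between -2.28 and -2.11. MCMBP was 0.44 ± 0.23 above the ring in si-NC and 0.20 ± 0.11 above it in si-METTL16 samples (SD, n = 3), with overlapping samples. These ratios are given without a test, since the members were chosen as a set.

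Most members had their lowest and highest control values in the same replicates. How often other genes did so was not counted, so this is not read as a trait of the family. Of the 10 members, 7 had their lowest si-NC value in replicate 1, and 9 had their highest in replicate 2. MCM9 was the exception, being highest in si-NC replicate 1. As deviations from the si-NC mean on the log2 scale, the mean of the ring subunits was -0.15, 0.16 and -0.01 in the si-NC replicates, and 0.77, 0.89 and 0.79 in the si-METTL16 replicates. In the silenced cells, replicate 2 held the highest value of 8 members, the exceptions being MCM2 and MCM5.

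Promoters of the members were searched for E2F sites because E2F factors act on genes of the ring. Whether E2F factors had a part in the change of any member was not tested. RefSeq windows on GRCh38.p14, from 250 bases before to 50 bases after a start site, were matched by symbol for 8 of the 10 members. MCM4 and MCM5 had no window and were not searched. The windows were searched on both strands for the letters TTTCGCGC, TTTGGCGC, TTTCCCGC and TTTGCCGC, which are forms of the E2F site. At least 1 match was found for 6 of the 8 members, in a window of MCM2, MCM3, MCM6, MCM7, MCM8 and MCMBP, against 3.99% of 27305 genes with at least 1 such window. Counted by window, 6 of the 11 windows of the members held a match, against 3.31% of 35116 windows of this length. Both background shares include genes whether or not they were expressed here, and were not matched to the members for base composition. The windows of MCM9 and MCM10 held none of these letters, but other forms of the E2F site were not searched. MCM10 had the highest and MCM9 the lowest log2 fold change of the family. MCM6, with the lowest log2 fold change of the ring subunits, held the most matches, 4 in 2 overlapping pairs. The letters CCAAT were found on either strand in windows of MCM3, MCM6, MCM7, MCM8, MCM9 and MCM10. Over all genes with such a window, 39.7% had at least 1 match, and by window the share was 34.6%. A match says only that these letters are present, and the lack of a match does not show that a window has no E2F site.

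The windows of 4 members are shown, MCM3 and MCM6 as the ring subunits with the largest and the smallest change, and MCM8 and MCM9 as partners with fold changes of opposite sign. All are written 5′ to 3′ on the strand of the gene, and capitals mark the E2F letters. They lie at chr6:52284693-52284992 (minus strand, MCM3), chr2:135876394-135876693 (minus strand, MCM6), chr20:5950402-5950701 (plus strand, MCM8) and chr6:118935110-118935409 (minus strand, MCM9).
MCM3: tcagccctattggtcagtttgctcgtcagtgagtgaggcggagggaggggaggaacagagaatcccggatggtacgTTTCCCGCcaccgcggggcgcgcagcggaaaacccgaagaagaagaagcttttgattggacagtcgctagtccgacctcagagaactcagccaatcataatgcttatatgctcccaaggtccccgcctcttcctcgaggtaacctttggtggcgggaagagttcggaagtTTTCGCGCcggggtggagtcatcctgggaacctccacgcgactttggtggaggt
MCM6: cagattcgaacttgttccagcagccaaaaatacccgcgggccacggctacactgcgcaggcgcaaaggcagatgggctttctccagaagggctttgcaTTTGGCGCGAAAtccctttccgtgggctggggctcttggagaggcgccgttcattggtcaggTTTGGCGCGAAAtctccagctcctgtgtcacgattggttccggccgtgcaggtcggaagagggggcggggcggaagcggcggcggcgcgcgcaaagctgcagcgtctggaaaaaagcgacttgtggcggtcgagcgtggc
MCM8: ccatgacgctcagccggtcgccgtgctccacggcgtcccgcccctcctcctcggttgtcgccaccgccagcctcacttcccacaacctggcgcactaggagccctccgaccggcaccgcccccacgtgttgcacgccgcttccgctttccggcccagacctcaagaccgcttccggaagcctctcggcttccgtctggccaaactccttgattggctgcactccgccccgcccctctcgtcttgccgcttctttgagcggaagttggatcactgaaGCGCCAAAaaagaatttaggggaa
MCM9: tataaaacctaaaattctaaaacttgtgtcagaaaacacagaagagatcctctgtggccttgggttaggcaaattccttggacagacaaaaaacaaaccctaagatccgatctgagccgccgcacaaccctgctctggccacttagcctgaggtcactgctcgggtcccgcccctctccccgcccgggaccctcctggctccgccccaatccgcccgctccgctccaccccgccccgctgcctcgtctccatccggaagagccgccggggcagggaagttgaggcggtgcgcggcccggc

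With positions counted from the start site and negative before it, the E2F letters of MCM3 began at -174 and -4. Those of MCM6 began at -152 and -148 and again at -90 and -86, each pair reading as E2F letters on both strands. The match of MCM8 lay on the opposite strand, at 26. In MCM2 an overlapping pair began at 2 and 6, and in MCMBP the match began at -9.

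**Figure D4:**
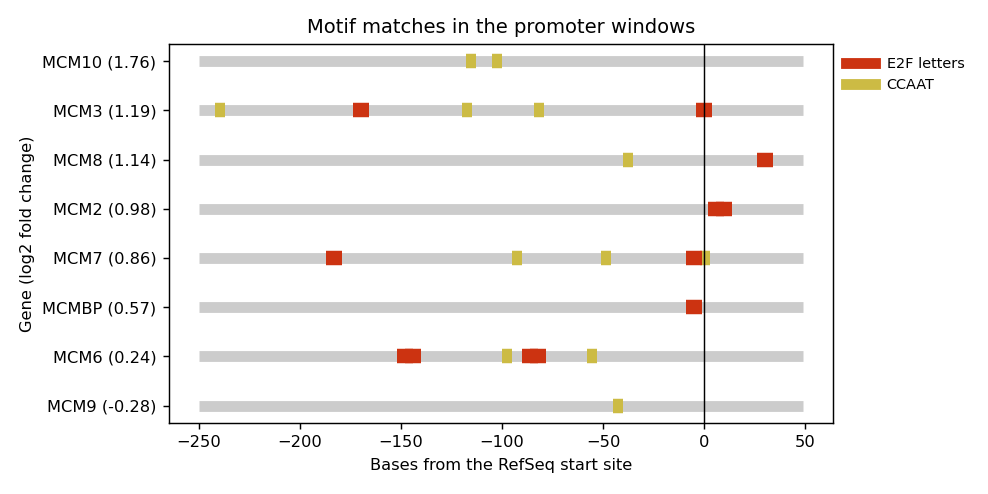
Positions of E2F letters (red) and CCAAT (yellow) in bases from the RefSeq start site for the 8 members with a window, ordered by log2 fold change, which is given beside each name; for MCM7 and MCMBP the window with an E2F match is drawn. Red marks are present in 6 rows and absent from the top row, MCM10, and the bottom row, MCM9. Other forms of the E2F site were not searched and are not drawn.

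By annotated gene ends, several members start near a gene on the other strand. PRKDC, the catalytic subunit of DNA-dependent protein kinase, starts 2 bases from MCM4 and rose with it (log2 fold change 0.54, edgeR adjusted p = 8.3e-04). TRMT6, a tRNA methyltransferase subunit whose start lies 94 bases from that of MCM8, had a log2 fold change of -0.01 (edgeR adjusted p = 0.952). SEC23IP, a vesicle transport gene 155 bases from MCMBP, had -0.02 (edgeR adjusted p = 0.825), and TPRA1, 44 bases from MCM2, had -0.22 (edgeR adjusted p = 0.350). With AP4M1, 1 of the 5 tested neighbours was called, which is no more than the 35.9% called over all genes. Distances are between the annotated gene ends, and those of MCM7 and MCMBP lie upstream of the RefSeq windows searched above. For MCMBP the annotated end is at 119892556, while its windows lie between 119872794 and 119873831. SEC23IP is thus close to that annotated end and not to those windows.

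The genes that load the ring on origins split into a group that rose and a group that did not pass the test. Of 9 licensing genes tested, 5 rose and 0 fell, against 18.4% of all genes called higher, and the median log2 fold change was 0.63. ORC6 and CDT1, the latter a loader of MCM2 to MCM7, had the highest log2 fold changes, 1.90 (edgeR adjusted p = 1.2e-04) and 1.53 (edgeR adjusted p = 5.5e-04). ORC1 and the loader CDC6 rose as well, by 1.48 and 1.38, and GMNN, the inhibitor of CDT1, by 0.63. The call of GMNN (edgeR adjusted p = 0.0303) was lost in 5 of 14 alternative fits, the same settings as for HROB, with adjusted p-values up to 0.0945, which left 4 licensing genes called. The other origin recognition genes, ORC2, ORC3, ORC4 and ORC5, were between -0.22 and 0.03, and ORC4 and ORC3 were the lowest (edgeR adjusted p = 0.105 and 0.446).

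All 14 tested genes that turn the loaded ring into an active helicase rose, with a median log2 fold change of 1.04 and no overlap between the groups for any of them. Over all genes, 18.4% were called higher and 50.9% did not overlap. The highest were the GINS subunits GINS4, at 1.64 (SE 0.36, edgeR adjusted p = 0.0110), and GINS2, at 1.57 (SE 0.24, edgeR adjusted p = 0.0027). Both had few counts in si-NC samples, between 42 and 85 for GINS4 and between 66 and 109 for GINS2. GINS4 was called in all 12 alternative fits that tested it. The lowest were CDC7, the kinase that phosphorylates the ring, and TOPBP1, a firing factor, at 0.63 and 0.64, both still called (edgeR adjusted p = 0.0011 and 0.0015). CDC45, the partner of the ring in CMG, went from between 83 and 91 counts in si-NC to between 214 and 235 counts in si-METTL16 samples. Its log2 fold change was 1.43 (SE 0.12, edgeR adjusted p = 2.4e-04), beside 1.19 for MCM3, the highest of the ring.

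Of the remaining MCM-related genes, 6 of 7 were tested, 3 rose and 1 fell, beside 18.4% and 17.5% of all genes. The single gene that fell is about the background share of 6 genes. TRAIP and LRR1, ubiquitin ligase components that act in taking CMG off chromatin, rose with log2 fold changes of 1.31 and 0.86 (edgeR adjusted p = 6.4e-04 and 0.0046). VCP, the segregase of that step with many other roles, fell with -0.26 (SE 0.04, edgeR adjusted p = 0.0040), from 102.8 ± 1.21 FPKM in si-NC to 84.6 ± 1.38 FPKM in si-METTL16 cells (SD, n = 3 each). CUL2, the cullin that works with LRR1, and MCM3AP, an mRNA export factor, had log2 fold changes of 0.05 and -0.01. MCMDC2, a meiotic gene with an MCM domain, had between 5 and 29 counts in a sample and did not pass the filter.

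**Figure D5:**
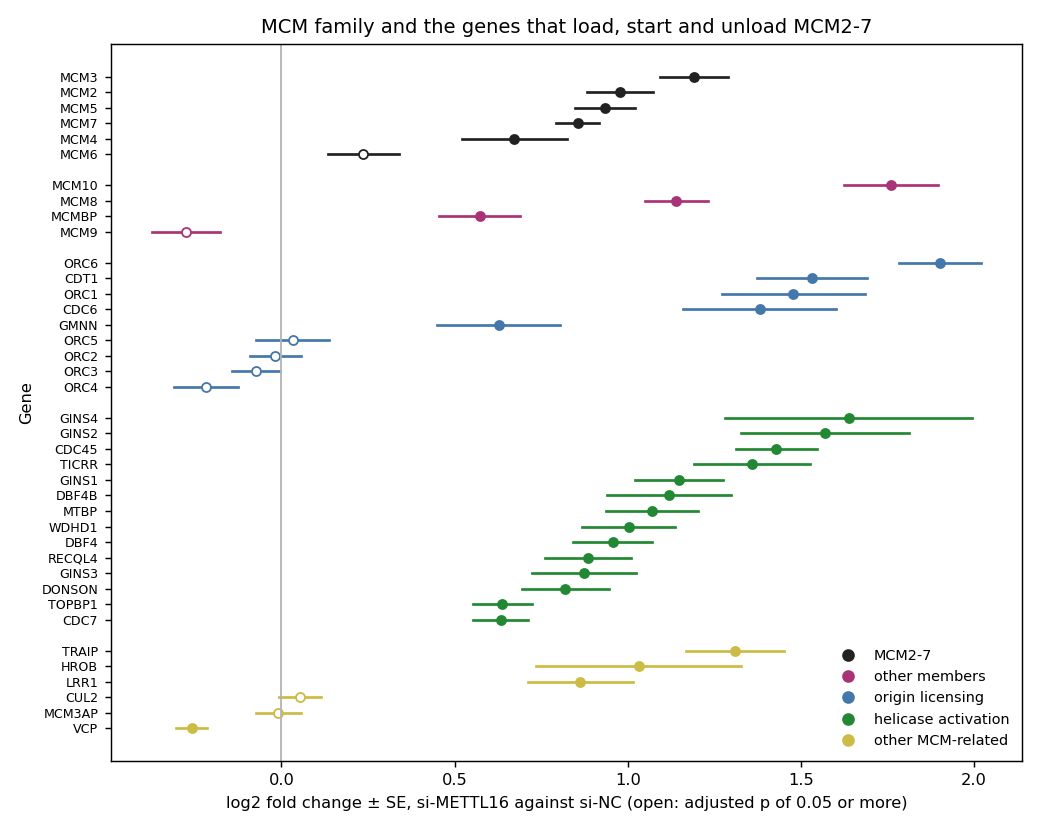
Log2 fold changes ± SE from edgeR for the members and the genes that load, activate and unload the ring, coloured by list; open points had an adjusted p of 0.05 or more. All 14 helicase activation genes lie between 0.63 and 1.64, while ORC2, ORC3, ORC4 and ORC5 lie around 0.

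Likeness to the ring was measured as the root mean square difference over the 6 samples between a gene and the mean of MCM2 to MCM7, both as log2 CPM relative to the si-NC mean. Among the genes nearest to it outside the family were DTYMK, TMPO, RNPS1 and NUP107, with differences from 0.03 to 0.05 on the log2 scale. DTYMK encodes thymidylate kinase and NUP107 a nuclear pore protein. Among the subunits, compared with the mean of the other 5, MCM7 was nearest at 0.10 and MCM6 farthest at 0.49. MCM9 and MCM10, at 0.78 and 0.67, were the members farthest from the ring.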

How the data were processed

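RNA was sequenced from 3 si-NC and 3 si-METTL16 samples of PANC-1 cells. The authors deposited a table of raw read counts per gene and FPKM values for each sample, FPKM being counts per gene length and library size. The submitters' processing notes name HISAT2 2.0.4, StringTie 1.3.0 and the build GRCh38, while the annotation release and the use of strand are not given in the sources used here. The members and gene lists were chosen with earlier results of these data known. Counts were filtered with filterByExpr, scaled by TMM and tested with edgeR 4.0.16 (quasi-likelihood F test, R 4.3.3) over all 15089 genes that passed, and p-values were adjusted by the Benjamini-Hochberg method with a threshold of 0.05. The study names limma for its comparison; limma 3.58.1 on FPKM and voom values and DESeq2 1.42.0 were run as alternatives, as were no filter, a stricter filter, other size factors, a block for replicate number and leaving out each sample. Shares and level orders per MANE Select length were added after the data had been seen.

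The methods call the replicates biological, but no source used here says that they were separate cultures, so p-values measure only the spread between these samples, which may be technical. No pair of libraries within a group agreed within counting noise, the lowest chi-square per degree of freedom being 16.6. The text names all members, the head-to-head neighbours, the proliferation markers, the genes among the 5 nearest in pattern and, of each pathway list, the genes with the 2 highest and 2 lowest log2 fold changes and any gene called lower. ORC1, CDC6, GMNN, ORC2, ORC5, CDC45, LRR1, CUL2 and ASF1A, and the ratios of MCM3 to MCM6 and of MCM8 to MCM9, were chosen after their values were seen. Some results that fall under this rule are not reported here. The fits were tested on simulated counts. Intervals are 95% intervals and reflect the spread between samples.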

Additional observations from a re-analysis of the deposited data

How the results depend on the processing

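At the threshold of 0.05, the 8 called members were called in all 14 alternative fits, and MCM6 in none. The count of members outside the ring called lower was 0, and leaving out 1 sample at a time gave 0 to 1, the 1 being MCM9 without si-METTL16 replicate 2, where its log2 fold change was -0.35 (edgeR adjusted p = 0.0440, range over all alternatives 0.0440 to 0.165). With a threshold of 0.01 in place of 0.05, 3035 genes and 7 members were called, MCM4 no longer being among them. Deviations of same-numbered samples correlated weakly, at 0.025 to 0.037, but above the -0.039 to 0.008 of differently numbered samples. These values do not settle whether the samples were paired by replicate number. A fit with the replicate number as a block called 5013 genes, 4731 of them among the 5418 called without it. It changed no call of a member, with an edgeR adjusted p of 0.0036 for MCM4 and 0.0650 for MCM6. On CPM, the share of MCM3 shifted by 5.39, that of MCM6 by -6.19 and that of MCM4 by -1.78 percentage points, against 7.45, -9.75 and -0.70 on FPKM. Per MANE Select length, which was chosen after seeing the data, MCM3 shifted by 5.29 and MCM6 by -5.47 points. With 3 samples a group, the 95% interval of MCM6 reached from -0.01 to 0.48 on the log2 scale, which is as precisely as these samples bound it.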
